A study of Mus musculus with 9 samples.

Results

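Transcripts of 9 genes whose proteins have been reported as substrates of Spop were followed in bone marrow cells of Spop knockout and wild-type mice. The genes were Brd2, Brd3, Ncoa3, Trim24, Daxx, Dek, Setd2, Senp7 and Egln2, taken by symbol whatever their levels, and all 9 were found among the 37187 genes of the LSK table and the 45076 of the neutrophil table. LSK cells are the marrow fraction that contains haematopoietic stem cells and multipotent progenitors, and gave 2 libraries of genotype Spop(D/D), called knockout here, and 2 of genotype Spop(+/+), called wild type. Ly6G+ neutrophils, sorted on a surface protein of granulocytes, gave 3 Spop(D/D) and 2 Spop(+/+) libraries. All 9 libraries were from bone marrow of mice aged 4 to 12 weeks and were made from polyadenylated RNA. The labels used here give no Cre driver, strain, sex, treatment or deleted exon. Nothing in them ties a group's libraries to separate animals. The p-values therefore cover only variation among these libraries, which may be technical.

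Spop recruits substrates to a ubiquitin ligase built on cullin-3. It binds a short degron in its substrate and holds it for ubiquitination, which marks many substrates for the proteasome. Most of the proteins encoded by these genes were reported as substrates in human cells, several in prostate or endometrial cancer, where SPOP is recurrently mutated. The ligase acts on proteins, and proteins were not measured, so the values below are transcript levels only.

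Levels are given as CPM, a gene's share of all counted reads, scaled by TMM within each population. Depth was 18827892 to 20264417 counted reads in LSK libraries and 21012702 to 27434086 in those of neutrophils, and each of the 9 genes had at least 301 reads in every LSK library and at least 77 in every neutrophil library. For the second knockout LSK library the cell type label says neutrophil, while the title says LSK. Its 12 neutrophil markers summed to 287 CPM, beside 348.5 CPM in the first knockout LSK library and 228 and 238 CPM in the wild-type ones. In neutrophils the sums were 38850 to 674700 CPM. Ly6g had 0 reads in every LSK library, and the library was kept as LSK knockout. Among neutrophils, the third knockout library held 18640 CPM of 10 red cell markers, against 40.7 and 3.60 CPM in the other knockout libraries and 1784 and 3727 CPM in wild type. The second wild-type library held 14990 CPM of 10 B cell markers, where knockout libraries held 14.8 to 52.8 CPM and the other wild-type library 429 CPM. The 12 neutrophil markers summed to 231100, 246600 and 674700 CPM in knockout and 224100 and 38850 CPM in wild type, highest in the third knockout library and lowest in the second wild-type library. MHC class II genes and the lymphocyte and monocyte marker lists had lower sums in every knockout neutrophil library than in either wild-type one. With edgeR 0 genes of these lists were called, as were 0 of all 12836 tested. DESeq2 called 8 of 8 B cell genes tested, 5 of 5 of MHC class II, 7 of 10 monocyte and macrophage and 5 of 10 T and NK cell genes. Over all 12836 genes DESeq2 called 278 higher and 613 lower. The 5 MHC class II genes summed to 17.0, 42.8 and 85.6 CPM in knockout and 542 and 24990 CPM in wild type. The 10 monocyte and macrophage markers summed to 288, 147 and 137 CPM in knockout and 518 and 1412 CPM in wild type. The 10 T and NK cell markers summed to 98.4, 41.6 and 134 CPM in knockout, with Ncr1 at 0, and 182 and 1250 CPM in wild type. Spop itself was at 312 and 306 CPM in knockout LSK libraries, against 380.4 and 390.1 CPM in wild type. In neutrophils it was at 158, 178 and 210 CPM in knockout and 135 and 194 CPM in wild type. Since the deleted part is not given, reads over the whole gene are no check of genotype.

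In knockout LSK cells Brd2, Trim24 and Senp7 fell, Dek rose, and the other 5 genes did not pass the test (edgeR quasi-likelihood test, adjusted p below 0.05). Brd2 was 1.60-fold lower, Trim24 and Senp7 each 1.69-fold lower, and Dek 1.23-fold higher. Among all 13008 genes tested 42.2% were called, 21.0% higher and 21.2% lower, so 4 of 9 is a share near the background. Under upper-quartile scaling 39.05% of LSK calls were higher, in place of 49.84%. The same 4 genes, and 50.1% of all genes, had an unadjusted p below 0.05. DESeq2 called 4 of the 9, beside 2778 higher and 2350 lower of all 13008 genes. The fold change was negative on the log2 scale for 7 of the 9 genes, where it was negative for 52.2% of all genes. Their median log2 fold change was -0.22, beside -0.031 over all genes, and their median absolute log2 fold change was 0.25, beside 0.40. The libraries of the genotypes did not overlap in 8 of the 9 genes (6 lower and 2 higher in knockout), beside 72.9% of all genes (38.3% lower and 34.6% higher). These calls rest on the spread among 4 libraries. In a fit that shares its spread with the neutrophil libraries no gene of the LSK comparison was called, and the adjusted p was 0.794 for Brd2, 0.803 for Trim24, 0.759 for Senp7 and 0.892 for Dek.

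**Figure D1:**
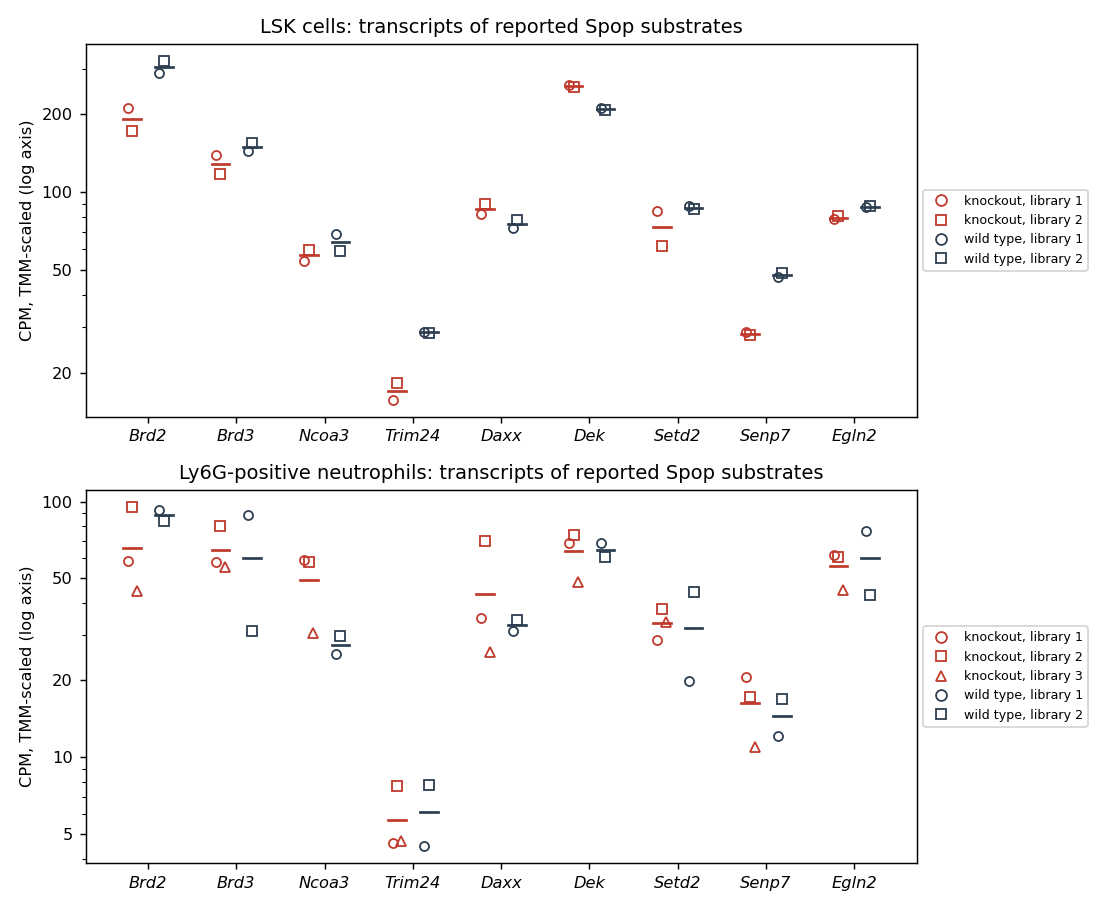
Level of the 9 transcripts in every library, in TMM-scaled CPM on a log axis, for LSK cells (top) and neutrophils (bottom). Each open symbol is a library, knockout in red and wild type in dark blue, and each short line is a group mean. In LSK cells the genotypes do not overlap for 8 of the 9 genes, beside 72.9% of all genes. The knockout libraries of Brd2, Brd3, Trim24, Setd2, Senp7 and Egln2 sit below wild type and those of Dek and Daxx above. In neutrophils the genotypes overlap for 8 of the 9 genes, where 34.5% of all genes do not overlap.

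The makeup of the LSK libraries moved with genotype too. LSK markers summed to 2675 and 2916 CPM in knockout and 4697 and 4448 CPM in wild type, and of 9 markers 8 fell while Ly6a rose. All 15 S phase genes rose, with sums of 6611 and 7198 CPM in knockout and 3797 and 3660 CPM in wild type. B cell markers summed to 128 and 194 CPM in knockout and 349 and 350 CPM in wild type, with 8 of 9 tested lower and Pax5 at 0 in both knockout libraries. Of 10 red cell markers 8 fell, with sums of 396 and 490.2 CPM in knockout and 1081 and 1002 CPM in wild type. Hba-a2, Alas2 and Slc4a1 were at 0 in both knockout libraries. The 10 monocyte and macrophage markers summed to 375 and 496 CPM in knockout and 107 and 144 CPM in wild type. Of them Ly86, Csf1r, Ccr2 and Cx3cr1 rose, and C1qa, C1qb, C1qc and Vcam1 were among those that fell. For MHC class II, H2-Aa, H2-Ab1 and H2-Eb1 fell among 5 genes, with sums of 174 and 269 CPM in knockout and 362 and 352 CPM in wild type. The part of these shifts in the values of the 9 genes was not tested. In bulk RNA, fewer cells of a type and less RNA per cell cannot be told apart.

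Brd2 and Brd3 encode BET proteins, which bind acetylated histones through paired bromodomains and promote transcription. Brd2 (GRCm38 chromosome 17, 34112023 to 34122634, minus strand) was at 210.5 and 171 CPM in knockout LSK libraries and 288 and 321 CPM in wild type. Both knockout libraries lay well below both wild-type libraries (log2 fold change -0.67 with an SE of 0.112 and an interval of -0.92 to -0.43, adjusted p = 0.000495, edgeR). Opposite-strand genes, H2-DMa among them, share 9.78% of the exon bases of Brd2, and the SMART-Seq v4 kit named in the labels does not mark strand. H2-DMa, a chaperone of MHC class II, was at 141 and 189 CPM in knockout and 301 and 274 CPM in wild type, and its part in the Brd2 value was not tested. Brd3 (chromosome 2, 27445579 to 27507662, minus strand) was at 139 and 117 CPM in knockout and 143 and 154 CPM in wild type. The knockout libraries were again the lower ones, by a small margin that did not pass (log2 fold change -0.22 with an SE of 0.109 and an interval of -0.45 to 0.017, adjusted p = 0.124). Brd3 did pass under upper-quartile scaling (adjusted p = 0.0312, edgeR), and its adjusted p was 0.964 with the spread shared by all 9 libraries. Without the first knockout library its log2 fold change was -0.31. That fit leaves a single knockout library, with no spread of its own. In the list of 7 BET genes and elongation partners 2 fell, Brd2 and the testis-type gene Brdt, and 0 rose. The counts of this list and of the lists below stand beside 42.2% called of all genes tested. Brdt was close to the detection floor, at 0.552 ± 0.104 CPM in knockout and 2.05 ± 0.0442 CPM in wild type (SD, n = 2 each).

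Ncoa3 and Trim24 encode coregulators of nuclear receptors. Ncoa3, a p160 coactivator (chromosome 2, 165992636 to 166073242, plus strand), was at 54.0 and 59.6 CPM in knockout LSK libraries and 68.8 and 59.1 CPM in wild type. It was the only gene of the 9 whose genotypes overlapped in LSK cells (log2 fold change -0.17 with an SE of 0.127 and an interval of -0.44 to 0.10, adjusted p = 0.300, edgeR). Of the 6 p160 coactivators and partners 3 fell and 1 rose. The p160 genes Ncoa1 (log2 -0.59, adjusted p = 0.00531) and Ncoa2 (log2 -0.40, adjusted p = 0.0356) fell, as did the histone acetyltransferase gene Crebbp (log2 -0.52, adjusted p = 0.00668). The arginine methyltransferase gene Carm1 rose (log2 0.45, adjusted p = 0.00375).

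Trim24 encodes a chromatin reader of the TIF1 family (chromosome 6, 37870811 to 37966296, plus strand). It was at 15.7 and 18.2 CPM in knockout LSK libraries and 28.7 and 28.5 CPM in wild type. The wild-type libraries were nearly equal and both knockout libraries lay far below them (log2 fold change -0.75 with an SE of 0.169 and an interval of -1.12 to -0.39, adjusted p = 0.00325, edgeR). Trim28, the TIF1 gene for the corepressor of zinc finger repressors, rose, at 481 ± 37.9 CPM in knockout and 346 ± 8.32 CPM in wild type (SD, n = 2 each, log2 0.48, adjusted p = 0.00147). Of 3 TIF1 genes tested 1 rose and 1 fell.

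Daxx, Dek and Setd2 act on chromatin. Dek, a DNA-binding protein and histone chaperone (chromosome 13, 47084775 to 47106201, minus strand), was at 260.3 and 255 CPM in knockout LSK libraries and 212 and 208 CPM in wild type. Libraries of a genotype were close together and the knockout pair lay above the wild-type pair (log2 fold change 0.30 with an SE of 0.0901 and an interval of 0.10 to 0.49, adjusted p = 0.0181, edgeR). The call was lost under upper-quartile scaling (adjusted p = 0.0964), without the first wild-type library (0.107) and without the second (0.144), in a range of 0.00618 to 0.892 over all alternatives. The opposite-strand gene Kdm1b shares 15.9% of the exon bases of Dek. It was at 43.6 and 40.5 CPM in knockout and 46.2 and 43.0 CPM in wild type, and its part in the Dek value was not tested.

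Daxx, which with Atrx deposits the histone variant H3.3 (chromosome 17, 33909414 to 33915590, plus strand), was at 82.0 and 89.4 CPM in knockout LSK libraries and 72.2 and 77.6 CPM in wild type. The knockout libraries were the higher ones, but the difference did not pass (log2 fold change 0.19 with an SE of 0.112 and an interval of -0.050 to 0.44, adjusted p = 0.187, edgeR). Among 12 genes of H3.3 and its deposition 2 rose and 3 fell. The chaperone genes Asf1b (log2 0.84, adjusted p = 9.11e-05) and Hira (log2 0.89, adjusted p = 0.00331) rose. The H3.3 genes H3f3a (log2 -0.55, adjusted p = 0.00308) and H3f3b (log2 -0.42, adjusted p = 0.00425) fell, though near-identical copies make their counts uncertain. Atrx, named after its value was seen, fell as well (log2 -0.37, adjusted p = 0.0421).

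Setd2, the methyltransferase that places the trimethyl mark on lysine 36 of histone H3 (chromosome 9, 110532597 to 110618633, plus strand), was at 84.5 and 61.9 CPM in knockout LSK libraries and 87.8 and 86.1 CPM in wild type. The first knockout library was close to wild type and the second was far lower (log2 fold change -0.25 with an SE of 0.141 and an interval of -0.56 to 0.059, adjusted p = 0.178, edgeR). Without the first knockout library the log2 fold change was -0.45, and without the second it was -0.038. Each of these fits leaves a single knockout library, with no spread of its own, so only effect sizes are given. With the spread shared by all 9 libraries the adjusted p of Setd2 was 0.943 (edgeR). Of 7 genes tested from a list for methylation of this lysine in general, not only its trimethyl mark, 2 rose and 1 fell. The methyltransferase genes Nsd2 (log2 0.68, adjusted p = 0.000302) and Smyd2 (log2 0.32, adjusted p = 0.0330) rose, and Ash1l fell (log2 -0.61, adjusted p = 0.00419).

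Senp7 is a protease that trims chains of the ubiquitin-like modifier SUMO (chromosome 16, 56048338 to 56190012, plus strand). It was at 28.7 and 27.9 CPM in knockout LSK libraries and 47.0 and 48.5 CPM in wild type. Each pair of libraries was tight and the pairs were far apart (log2 fold change -0.75 with an SE of 0.134 and an interval of -1.04 to -0.46, adjusted p = 0.000665, edgeR). No exon base of Senp7 or Trim24 is shared with another annotated gene. Among 11 genes of SUMO and its proteases 3 rose and 2 fell. Senp1 rose, at 126 ± 13.4 CPM in knockout and 82.2 ± 2.32 CPM in wild type (SD, n = 2 each, log2 0.61, adjusted p = 0.000774), Senp5 rose (log2 0.45, adjusted p = 0.0444) and Senp6 fell (log2 -0.31, adjusted p = 0.0420). Senp8, a protease of the related modifier NEDD8 that was named after its value was seen, rose (log2 0.54, adjusted p = 0.0488).

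Egln2 is a prolyl hydroxylase that marks hypoxia-inducible factors for destruction when oxygen is present (chromosome 7, 27158658 to 27166802, minus strand). It was at 78.3 and 80.8 CPM in knockout LSK libraries and 87.2 and 88.2 CPM in wild type. The knockout libraries were slightly lower and the difference did not pass (log2 fold change -0.14 with an SE of 0.107 and an interval of -0.37 to 0.091, adjusted p = 0.312, edgeR). Among 7 genes of oxygen sensing tested 2 rose and 1 fell. The hydroxylase gene Egln3 rose, at 65.7 ± 1.92 CPM in knockout and 36.6 ± 4.57 CPM in wild type (SD, n = 2 each, log2 0.84, adjusted p = 0.000266), as did Hif1a, the oxygen-regulated factor subunit (log2 0.47, adjusted p = 0.00253). Vhl, whose product recognises the hydroxylated factor, fell (log2 -0.57, adjusted p = 0.00147).

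**Figure D2:**
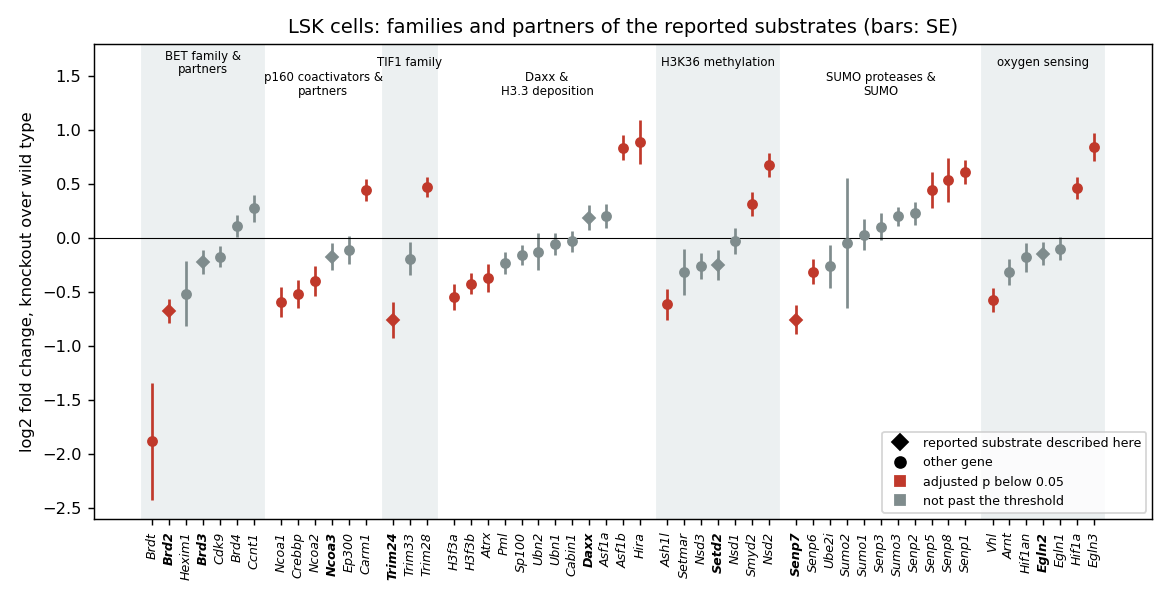
Log2 fold change of knockout over wild type in LSK cells for the 9 genes except Dek (diamonds, bold names) and their families and partners (circles). Bars are 1 SE from the edgeR fit of 2 libraries per genotype. Dek is in none of the family lists and is not drawn. Red marks an adjusted p below 0.05, reached by 42.2% of all genes tested. Changes differ in sign within the TIF1 family, with Trim24 at -0.75 and Trim28 at 0.48, and among SUMO proteases, with Senp7 at -0.75 and Senp1 at 0.61.

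Of the 28 other called genes of these lists, of the ligase and of the further substrates named at the end, 13 kept their call in LSK cells with each library left out in turn: Asf1b, Ccne1, Cdc20, Dcun1d1, Egln3, G3bp1, Hira, Myd88, Nsd2, Senp1, Trim28, Ube2m and Vhl. The other 15 lost it without at least 1 library. Without the first wild-type library the calls of Atrx, Brdt, Cand1, Carm1, H3f3a, H3f3b, Hif1a, Ncoa2, Senp5, Senp6 and Senp8 were lost. Without the second those of Ash1l, Atrx, Brdt, Cand1, Crebbp, Ncoa1, Ncoa2, Senp5, Senp6, Senp8 and Smyd2 were lost. Without the first knockout library the calls of Senp5 and Senp8 were lost, and without the second those of Atrx, Brdt, Ncoa2 and Senp6. Each of these fits leaves a single library in a genotype, with no spread of its own. A call kept or lost there is a description only. Upper-quartile scaling also ended the calls of Senp5 (adjusted p = 0.0963), Senp8 (0.0921) and Smyd2 (0.117), and DESeq2 did not call Senp6 (0.0627) or Senp8 (0.0591). With the spread shared by all 9 libraries every call of a gene in that fit was lost. Nsd2 was not in it, because genes were joined by symbol and the neutrophil counts list it under its older symbol, Whsc1.

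Promoter sequence is shown for 3 of the 4 called genes, 1 that rose and 2 that fell, because RefSeq gives them a transcription start within 100 bases of the annotated gene start. Each line is the 250 bases before that start on the gene's strand (RefSeq, GRCm38.p6). Capitals mark matches on either strand to 6 motifs: the E2F site (TTTCCCGC, TTTGGCGC, TTTCGCGC or TTTGCCGC), the CCAAT box (CCAAT), the ETS core (CCGGAAG), the E-box (CACGTG), the CRE (TGACGTCA) and the GC box (GGGCGG). The windows are chr13:47106222-47106471 for Dek, chr17:34122608-34122857 for Brd2 and chr6:37870561-37870810 for Trim24.
Dek: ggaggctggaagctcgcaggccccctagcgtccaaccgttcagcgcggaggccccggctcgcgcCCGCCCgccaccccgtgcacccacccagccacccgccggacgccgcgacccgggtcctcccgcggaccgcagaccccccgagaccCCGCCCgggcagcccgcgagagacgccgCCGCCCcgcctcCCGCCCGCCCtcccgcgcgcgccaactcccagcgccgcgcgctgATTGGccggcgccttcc
Brd2: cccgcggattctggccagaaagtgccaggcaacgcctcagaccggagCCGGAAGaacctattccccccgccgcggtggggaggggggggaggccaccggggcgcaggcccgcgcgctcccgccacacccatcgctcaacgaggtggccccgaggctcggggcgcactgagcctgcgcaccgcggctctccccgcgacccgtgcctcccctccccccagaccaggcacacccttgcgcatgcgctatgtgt
Trim24: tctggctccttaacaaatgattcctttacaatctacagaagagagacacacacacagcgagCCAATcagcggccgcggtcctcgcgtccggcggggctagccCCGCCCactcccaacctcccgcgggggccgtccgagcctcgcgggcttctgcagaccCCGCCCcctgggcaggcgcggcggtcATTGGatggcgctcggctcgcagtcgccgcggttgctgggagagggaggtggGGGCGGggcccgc
The Dek window is 81.2% G or C and held 5 GC boxes, of which the 2 nearest the start overlap, and a CCAAT box 17 to 13 bases before the start. The Trim24 window held 3 GC boxes and 2 CCAAT boxes, and the Brd2 window 1 ETS core. RefSeq gives 3 starts for Brd2 and 2 for Trim24, and the one nearest the annotated gene start is printed. The motifs depend on that choice. A GC box was in 1 of the Brd2 windows, not the printed one, and the Trim24 window not printed held neither a GC box nor a CCAAT box. Of all 32851 windows of this length 32.7% held a GC box, 33.8% a CCAAT box and 6.91% an ETS core. None of the 3 printed windows held the E2F letters (1.86% of all windows), the E-box (6.02%) or the CRE (1.55%). A match is a description of the letters and not evidence of binding.

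Ratios of paired genes within a library do not depend on scaling between libraries. There were 1.52 and 1.46 reads of Brd2 per read of Brd3 in knockout LSK libraries and 2.01 and 2.08 in wild type. Trim24 had 0.0345 and 0.0358 reads per read of Trim28 in knockout and 0.0845 and 0.0810 in wild type. Senp7 had 0.212 and 0.240 reads per read of Senp1 in knockout and 0.584 and 0.578 in wild type. These 3 ratios were lower in both knockout libraries. Egln2, not called by itself, had 1.17 and 1.26 reads per read of Egln3 in knockout and 2.19 and 2.64 in wild type. The ratio of Ncoa3 to Ncoa1 overlapped between genotypes (1.28 and 1.74 in knockout, 1.29 and 0.959 in wild type), as did that of Dek to Daxx (3.18 and 2.85 in knockout, 2.93 and 2.67 in wild type). The pairs were chosen after values had been seen, so the ratios are a description, and they show unequal change without showing which gene changed.

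**Figure D3:**
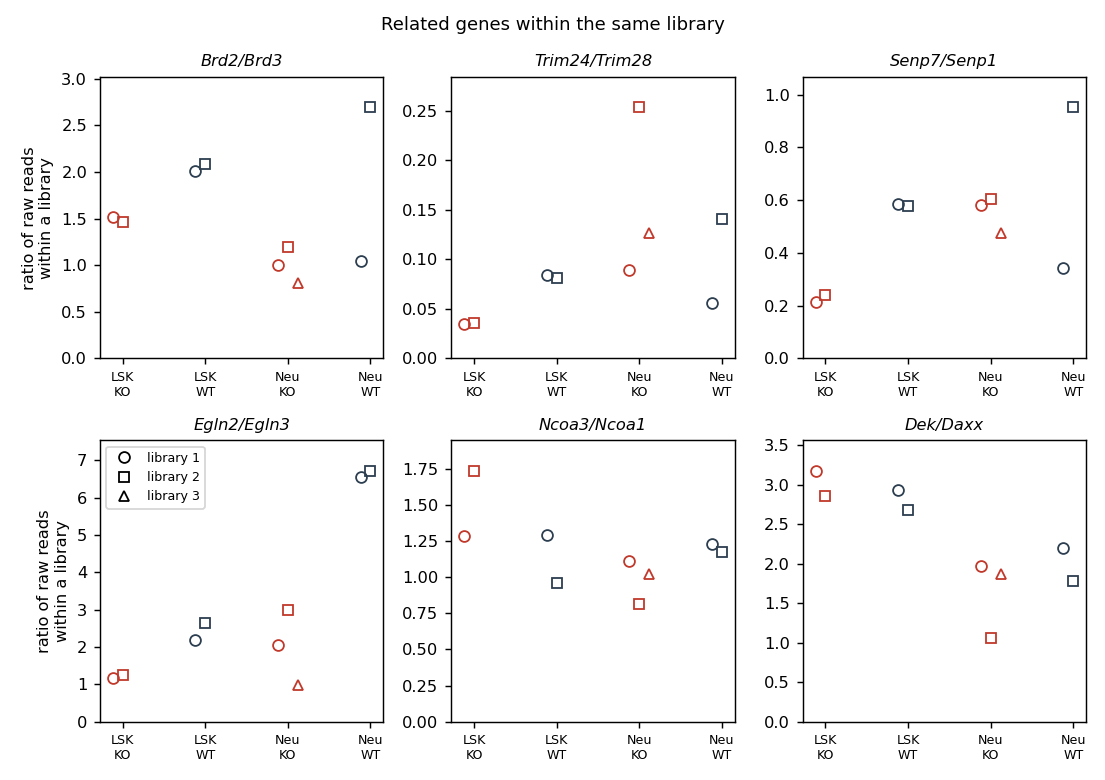
Raw reads of a gene divided by those of a paired gene in the same library, for LSK cells and neutrophils (Neu), with each symbol a library, knockout (KO) in red and wild type (WT) in dark blue. In LSK cells 4 of 6 ratios are lower in both knockout libraries and Ncoa3/Ncoa1 and Dek/Daxx overlap. Among single genes 72.9% do not overlap there, and the share over other gene pairs was not computed. In neutrophils Egln2/Egln3 is 2.04, 2.98 and 0.971 in knockout and 6.54 and 6.72 in wild type, Ncoa3/Ncoa1 is 1.11, 0.813 and 1.02 in knockout and 1.23 and 1.17 in wild type, and the other 4 ratios overlap.

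In knockout neutrophils none of the 9 genes passed the test, and libraries of a genotype differed widely. With edgeR 0.00% of 12836 genes were called, while 13.9% had an unadjusted p below 0.05. Of the 9 genes 0 had an unadjusted p below 0.05. DESeq2 called 0 of the 9, beside 278 higher and 613 lower of all 12836 genes. Their median log2 fold change was 0.068, beside 0.017 over all genes, with 5 positive and 4 negative values. With upper-quartile scaling the median of the 9 was -0.092, beside -0.12 over all genes. Their median absolute log2 fold change was 0.11, beside 0.61 over all genes.

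Ncoa3 had the largest change of the 9 in neutrophils, at 58.9, 58.1 and 30.6 CPM in knockout and 25.3 and 29.8 CPM in wild type. All knockout libraries lay above both wild-type libraries, as they did for 17.0% of all genes (34.5% did not overlap in either direction and 17.5% were all below), but the third knockout library was barely above. The difference did not pass (log2 fold change 0.84 with an SE of 0.421 and an interval of -0.16 to 1.83, adjusted p = 0.427, edgeR). Without the third knockout and second wild-type libraries, which leaves a single wild-type library, the log2 fold change of Ncoa3 was 1.19.

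Brd2 was at 58.3, 95.1 and 44.8 CPM in knockout neutrophils and 92.6 and 84.0 CPM in wild type (log2 fold change -0.42 with an SE of 0.424 and an interval of -1.42 to 0.58, adjusted p = 0.690, edgeR). The second knockout library was above both wild-type libraries and the other knockout libraries were below. H2-DMa, on its opposite strand, was at 15.7, 13.3 and 12.6 CPM in knockout and 78.7 and 365 CPM in wild type, and its part was not tested. Brd3 was at 57.9, 79.8 and 55.4 CPM in knockout and 88.7 and 31.2 CPM in wild type (log2 fold change 0.10 with an SE of 0.504 and an interval of -1.09 to 1.29, adjusted p = 0.947). The wild-type libraries enclosed all knockout values, and the library with the B cell reads was the low one. Without the third knockout and second wild-type libraries the log2 fold change of Brd3 was -0.39, a turn of sign.

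Daxx was at 34.9, 69.9 and 25.9 CPM in knockout neutrophils and 31.2 and 34.3 CPM in wild type, with the second knockout library far above all others (log2 fold change 0.41 with an SE of 0.492 and an interval of -0.75 to 1.57, adjusted p = 0.737, edgeR). That library, also the highest for Brd2, held 326 CPM of 9 LSK markers, against 51.7 and 41.4 CPM in the other knockout libraries and 43.5 and 418 CPM in wild type, and the part of these was not tested. Dek, which rose in LSK cells, was at 68.8, 74.2 and 48.5 CPM in knockout neutrophils and 68.6 and 60.8 CPM in wild type (log2 fold change -0.020 with an SE of 0.360 and an interval of -0.87 to 0.83, adjusted p = 0.987). Setd2 was at 28.7, 38.0 and 33.8 CPM in knockout and 19.8 and 44.2 CPM in wild type (log2 fold change 0.068 with an SE of 0.440 and an interval of -0.97 to 1.11, adjusted p = 0.960). For Setd2 the knockout values again lay between the wild-type ones, and the library with the B cell reads was the high one.

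Trim24 was the lowest of the 9 in neutrophils, at 4.62, 7.70 and 4.71 CPM in knockout and 4.48 and 7.74 CPM in wild type (log2 fold change -0.11 with an SE of 0.540 and an interval of -1.38 to 1.17, adjusted p = 0.949, edgeR). Senp7 was at 20.6, 17.2 and 10.9 CPM in knockout and 12.1 and 16.9 CPM in wild type (log2 fold change 0.17 with an SE of 0.435 and an interval of -0.86 to 1.19, adjusted p = 0.894). Egln2 was at 61.5, 60.6 and 44.9 CPM in knockout and 76.8 and 42.9 CPM in wild type (log2 fold change -0.10 with an SE of 0.398 and an interval of -1.04 to 0.84, adjusted p = 0.930). All of them overlapped between genotypes. The third knockout library, with the red cell reads and the highest neutrophil marker sum, was the lowest knockout library for Brd2, Brd3, Ncoa3, Daxx, Dek, Senp7 and Egln2, and the part of either was not tested. In the 7 family lists 0 genes were called by edgeR in neutrophils. At an unadjusted p below 0.05 were 1 gene of the p160 list and 2 of the oxygen sensing list, beside 13.9% of all genes. DESeq2 called 1, in the oxygen sensing list, beside 278 higher and 613 lower over all genes. Egln3 was at 32.2 ± 13.1 CPM in knockout and 9.06 ± 3.79 CPM in wild type (SD, n = 3 and 2, adjusted p = 0.226, edgeR), and was the gene DESeq2 called (adjusted p = 0.0266, in a range of 0.0266 to 0.552 over all alternatives).

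The effects of genotype in LSK cells and in neutrophils were compared in a fit of all 9 libraries. None of the 9 genes passed with edgeR (0.0299% of 13387 genes did), and 0 had an unadjusted p below 0.05, beside 15.7% of all genes. DESeq2 called 0 of the 9, and 562 higher and 450 lower over all genes. The LSK effect minus the neutrophil effect was -0.97 for Ncoa3 (SE 0.490, interval -2.10 to 0.16, adjusted p = 0.371) and -0.89 for Senp7 (SE 0.505, interval -2.05 to 0.27, adjusted p = 0.420, edgeR). Ncoa3 and Senp7 passed in no alternative but the one without the third knockout and second wild-type neutrophil libraries. That fit left a single wild-type neutrophil library, with no spread of its own. Only its effect sizes are therefore given, -1.33 for Ncoa3 and -1.35 for Senp7. For the other called LSK genes the difference was -0.22 for Brd2 (interval -1.39 to 0.96), -0.61 for Trim24 (-1.96 to 0.74) and 0.36 for Dek (-0.55 to 1.27). Intervals this wide do not show that the populations respond alike.

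**Figure D4:**
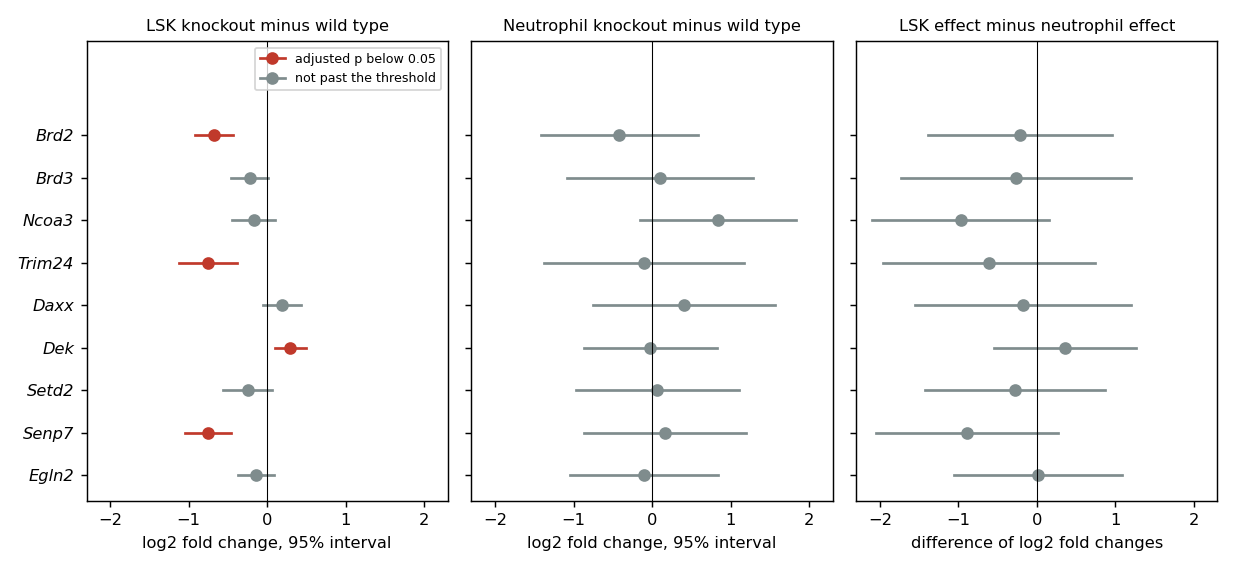
Log2 fold change of knockout over wild type with its 95% interval in LSK cells (left, 2 and 2 libraries) and neutrophils (middle, 3 and 2 libraries), and the difference between these effects (right), from edgeR. Red marks an adjusted p below 0.05. The LSK intervals of Brd2, Trim24, Dek and Senp7 exclude 0, and every neutrophil interval and every interval of the difference includes 0.

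Ranked by level per kilobase of exon, the 9 genes kept a similar order in all groups, and the order depended on the length used. Dek led in LSK cells, at 80.8 ± 1.23 CPM per kilobase in knockout and 65.8 ± 0.938 in wild type (SD, n = 2 each). In neutrophils Dek and Egln2 did not differ beyond their spread: Dek was at 20.0 ± 4.26 and Egln2 at 19.9 ± 3.34 CPM per kilobase in knockout (SD, n = 3), and Dek at 20.3 ± 1.72 and Egln2 at 21.4 ± 8.57 in wild type (SD, n = 2). Brd2 was at 24.4 ± 3.54 CPM per kilobase in knockout LSK cells, close to Egln2 at 28.4 ± 0.611 and Daxx at 27.2 ± 1.67. In wild-type LSK cells it was second after Dek, at 38.9 ± 2.98, above Egln2 at 31.3 ± 0.240. Ncoa3 and Setd2 lay within each other's spread in LSK cells, at 7.20 ± 0.505 and 6.81 ± 1.48 CPM per kilobase in knockout and 8.10 ± 0.871 and 8.09 ± 0.113 in wild type. Senp7 and Trim24 were the lowest pair in every group, at 2.03 ± 0.0373 and 1.99 ± 0.208 CPM per kilobase in knockout LSK cells and 3.42 ± 0.0729 and 3.35 ± 0.0194 in wild type. With the longest transcript as length the level of 8 of the 9 genes in wild-type LSK cells moved beyond its spread. Brd2 was then at 41.0 ± 5.95 CPM per kilobase in knockout LSK cells, beside Egln2 at 37.8 ± 0.812 and Daxx at 32.0 ± 1.97, so that its mean was second after Dek in both genotypes, within its own spread of Egln2 in knockout. Senp7 was then at 5.87 ± 0.108 in knockout and 9.89 ± 0.211 in wild-type LSK cells, above Trim24 at 4.19 ± 0.438 and 7.07 ± 0.0409, and in wild type also above Ncoa3 at 8.49 ± 0.913.

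The percentile of level per kilobase among the genes tested in a library gives each gene's place within its population. Dek stood at percentile 94.3 to 94.4 in knockout LSK libraries and 93.8 to 94.1 in wild type, and at 81.4 to 86.8 in knockout neutrophils and 86.5 to 87.2 in wild type. Brd2 stood at 75.7 to 79.5 in knockout LSK libraries and 86.4 to 88.3 in wild type, and at 66.4 to 78.7 in knockout neutrophils and 78.4 to 79.0 in wild type. Ncoa3 stood at 48.6 to 51.4 in knockout LSK libraries and 50.0 to 54.1 in wild type, and at 58.9 to 71.4 in knockout neutrophils and 55.5 to 57.0 in wild type. The populations were tabulated apart, so no test was made between them.

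The genes most alike to the called ones were sought over the 9 libraries, with each population centred on its own mean, among 7713 genes. Dek was nearest to Hyou1, a chaperone gene of the endoplasmic reticulum (Pearson r = 0.995), and to Ascc2 (0.982) and the splicing factor gene Sf3a3 (0.974). Among the genes most alike to Trim24 were the interferon regulatory factor gene Irf2 (0.977) and Ltb (0.968). Senp7 was nearest to Neurl3 (0.975), the kinase gene Rock2 (0.966) and Ngly1 (0.962). Brd2 was nearest to Inpp5e (0.967), Gse1 (0.956) and Ptpn23 (0.945). These are the highest of many correlations over libraries that share genotype and composition, and they are a description only.

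Of 31 other reported Spop substrates, 26 were tested in LSK cells, and 6 rose and 6 fell, a share near the 42.2% called of all genes, with a median log2 fold change of -0.12. The smallest p-values belonged to genes that rose: Myd88, the adaptor of Toll-like receptors (2.07-fold, adjusted p = 9.44e-06, edgeR), the cyclin gene Ccne1 (2.76-fold, 2.43e-05), the mitotic activator gene Cdc20 (1.86-fold, 5.45e-05) and the stress granule gene G3bp1 (1.49-fold, 0.000281). In neutrophils edgeR called 0 of 25 tested, and 3 had an unadjusted p below 0.05 (13.9% of all genes did). DESeq2 called 1 of them there, beside 278 higher and 613 lower over all genes. Of 8 genes of the ligase and its neddylation, Ube2m and Cand1 rose and Spop and Dcun1d1 fell in LSK cells. The adjusted p of Spop was 0.00270 with upper-quartile scaling and 0.874 with the spread shared by all 9 libraries (edgeR), where its call was lost. The call of Spop was also lost without the first or second wild-type library, at log2 fold changes of -0.33 and -0.30. Each of these fits leaves a single wild-type library, with no spread of its own.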

How the data were processed

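Bulk RNA-seq libraries had been made from sorted LSK cells and neutrophils with a SMART-Seq v4 kit for low input, per the labels' protocols. Per the submitters' processing notes, bcl2fastq, STAR, featureCounts and DESeq2 were used with the builds mm10 and GRCm38. Versions, settings, annotation and strand handling were not stated there. For each population the authors deposited raw read counts per gene, which entered every test. They also deposited normalized values (unit: signal), which equalled the counts of the 9 genes divided by a single factor per library to within 0.0032% and served only for that check.

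LSK identifiers were paired with symbols through a table of Ensembl gene names, and GENCODE M21 (GRCm38) gave lengths and coordinates. For the fit of both populations 34431 genes were joined by symbol. Counts were tested with edgeR 4.0.16 in R 4.3.3 (limma 3.58.1), with TMM scaling, filterByExpr on the groups, glmQLFit (robust) with glmQLFTest, and Benjamini-Hochberg adjustment at 0.05. Intervals are 95% intervals. The 9 genes and all lists were chosen with earlier results of these data known. The text names the 9 genes, Spop, at most 4 called genes per list by smallest p in LSK cells, and the 3 genes most alike to each called gene by Pearson r on log2 CPM (prior count 2, mean of at least 2 in both populations), of which 1 is not reported here. Alternatives were upper-quartile scaling, DESeq2 1.42.0, no filter, each library left out, a replicate block, a shared spread, and the third knockout and second wild-type neutrophil libraries left out together. Leaving out any LSK library, or a wild-type neutrophil library, leaves a single library in that group, with no spread of its own. The procedure was tested on simulated data. No 2 libraries of a group matched within sampling noise (lowest chi-square per gene 9.39), and each was counted as 1 replicate. A floor of 3 reads equals 0.109 to 0.159 CPM and covers counting error only.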

Additional observations from a re-analysis of the deposited data

How the results depend on the processing

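In LSK cells the calls of Brd2, Trim24 and Senp7 held with upper-quartile scaling, DESeq2, no filter and the replicate block. That of Dek held with DESeq2, no filter and the replicate block. All of these calls were lost with the shared spread. Fits without an LSK library leave a single library in a genotype, with no spread of its own, so counts of calls from them are a description only. Among the 9 genes, 0 rose with upper-quartile scaling, and 0 rose and 0 fell with the shared spread, under which 0 genes of all were higher and 0 lower. Leaving out a library gave 0 to 1 of the 9 higher and 3 to 5 lower, 1848 to 2902 genes of all higher and 1676 to 2816 lower. The fewest genes were lower without the first wild-type library (1676) or the second (1761).

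In neutrophils 0 of the 9 genes were called under any of 11 alternatives, while the calls over all genes varied: 278 higher and 613 lower with DESeq2, 76 and 258 without a filter, 114 and 414 with the shared spread, and 0 to 207 and 0 to 394 with a library left out (most without the first wild-type library). The median of the 9 was -0.092 with upper-quartile scaling, 0.44 without the third knockout and second wild-type libraries, and -0.11 to 0.31 with a library left out. Values there turned sign with upper-quartile scaling for Brd3 (-0.033), Setd2 (-0.092) and Spop (-0.00311). Without the third knockout and second wild-type libraries they did for Brd3 (-0.385), Trim24 (0.44) and Dek (0.043). With a library left out the log2 fold changes ranged over -0.49 to 1.10 for Brd3, -0.39 to 0.31 for Trim24, -0.11 to 0.67 for Daxx, -0.15 to 0.14 for Dek, -0.34 to 0.73 for Setd2, -0.061 to 0.39 for Senp7, -0.50 to 0.44 for Egln2 and -0.037 to 0.40 for Spop. The cause of these turns was not tested.

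For the difference between the populations, calls over all genes were 562 higher and 450 lower with DESeq2, 5 higher and 5 lower without a filter, 997 higher and 749 lower without the third knockout and second wild-type neutrophil libraries (with 2 of the 9 genes lower), and 0 to 737 higher and 0 to 612 lower with a library left out. Egln2 turned to -0.017 with upper-quartile scaling and -0.083 with DESeq2, and Brd3 to 0.21 without the third knockout and second wild-type neutrophil libraries. With a library left out the ranges were -0.45 to 0.15 for Brd2, -1.27 to 0.23 for Brd3, -0.46 to 0.35 for Daxx, -1.02 to 0.15 for Setd2 and -0.53 to 0.31 for Egln2.

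Replicate numbers shared between the genotypes do not pair the libraries by any label, and deviations of same-numbered libraries correlated at r = 0.0039 in LSK cells and 0.130 in neutrophils, with 2 pairs each. With the replicate block 2881 LSK genes were higher and 2895 lower, 1 and 3 of them among the 9. In neutrophils the block, fitted without the third knockout library, gave 38 higher and 127 lower, 0 of them among the 9, and Trim24 (0.014), Dek (0.14) and Egln2 (0.084) turned sign. The search for the Spop-binding consensus in the proteins was not run.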
